A study of Mus musculus with 2 samples.

Results

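The 10 genes described here are microglial genes of the classical complement pathway and of phagocytosis, namely Trem2, Tyrobp, C1qa, C1qb, C1qc, Itgam, Cd68, Cd14, Ctss and Selplg. They were listed by name, and their probes were found by matching the accession of each array probe to RefSeq gene symbols. This gave 12 probes for 9 of the 10 genes. Cd68, the lysosomal glycoprotein of phagocytes, had no matched probe and has no value here. All 9 genes with a probe were well above background on both arrays and stand among 15737 measured named genes.

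Messenger RNA was measured in brain tissue of male Il18-/- mice and of male Il18+/+ mice, both on a C57Bl/6 N background and 12 weeks old. RNA of 7 animals was pooled per genotype and measured on 1 array. Each genotype thus has 1 sample, so there is no replicate check of any difference and nothing could be tested. The tissue is labelled hippocampus, but the extraction text speaks of prefrontal cortex. The labels name no cell type for the deletion, so it is not specific to microglia as far as they say. Il18 itself had a log2 level of -0.12 in Il18-/-, against 1.37 in Il18+/+, which is 2.80-fold lower. Where its probe lies relative to the deletion is not known here, so this reading does not check the genotype.

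Microglia are the resident macrophages of the brain. The complement protein C1q, which they make in quantity, binds to cell debris and to synapses and starts the classical cascade, and the receptor CR3 on microglia then recognises the deposited complement fragments. TREM2 is a surface receptor for lipids, lipoproteins and dying cells that signals through the adaptor TYROBP (DAP12). Interleukin-18 is a cytokine of the interleukin-1 family that microglia are among the brain cells able to produce.

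Levels below are log2 processed signals minus the log2 of the 75th percentile of the same array, and a difference is Il18-/- minus Il18+/+. Brightness depends on the probe, so a level is comparable between arrays and not between probes. Over all measured genes the median difference was 0.01, and 90% of them lay between -0.45 and 0.33. Of these 15737 genes, 264 were at least 1.5-fold higher and 405 at least 1.5-fold lower. Probes printed in repeated spots had a median SD of 0.07 for the difference over 290 such probes, with a 95th percentile of 0.27. The scanner software's own error estimate for a single spot came to about 0.20 on the same scale for most members.

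The 9 measured members differed little between the genotypes and not all in the same direction. Trem2 was higher in Il18-/- and Selplg was lower, each by about 1.35-fold, while Tyrobp, C1qb, C1qc and Cd14 differed by less than 0.1 on the log2 scale. In all, 3 members were higher and 6 lower, with a median difference of -0.06, and their differences ran from -0.43 to 0.43. Of all measured genes, 52.6% were higher and 47.4% lower. The members' split changed with the scaling, as given below. None of the 9 reached 1.5-fold, where 4.25% of all measured genes did. A smaller size, 25%, was chosen after the values were seen. By it 1 member was higher in Il18-/-, where 5.12% of all measured genes were, and 1 was higher in Il18+/+, where 9.11% of all measured genes were. The members' counts at 1.5-fold and at 25% are thus near what the whole array gives. With bulk RNA, fewer microglia and less of an RNA per microglia cannot be told apart.

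**Figure D1:**
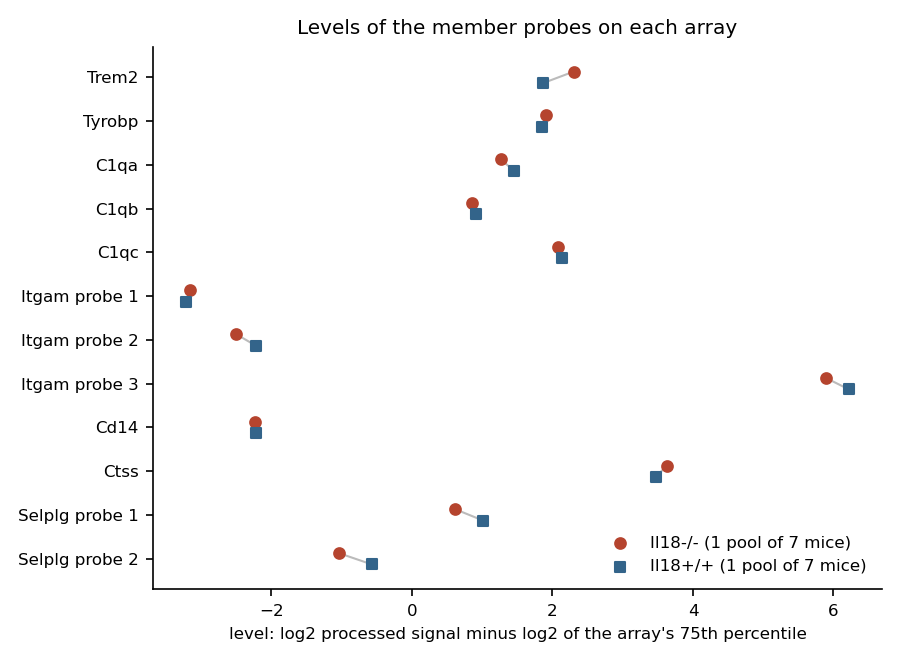
Level of each member probe (log2 processed signal minus log2 of the array's 75th percentile) in the Il18-/- pool (red circles) and the Il18+/+ pool (blue squares), 1 array each. Trem2 lies further right in Il18-/-, at 2.30 against 1.87, both Selplg probes lie further left, and the 3 Itgam probes lie far apart along the axis.

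Among the receptors, Trem2 was read by 1 probe in 1 spot. Its processed intensity was 3496 in Il18-/- and 2540 in Il18+/+, which gave levels of 2.30 and 1.87 and a difference of 0.43, or 1.35-fold. This was the largest positive difference among the members, and 2.96% of all measured genes had a larger one. It was larger than the software's error of 0.20 for the spot, and the 18 nearest other spots on the glass had a median difference of 0.10.

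Tyrobp, the adaptor that carries the signal of TREM2, had an intensity of 2662 in Il18-/- and 2509 in Il18+/+. Its difference of 0.05 was smaller than the spread of repeated spots, whereas that of the receptor was larger. Each of these readings rests on 1 spot. Of 24 further genes on the list of TREM2 and TYROBP partners, 18 were measured, 7 higher and 11 lower, with a median of -0.03 that was above 0 with median scaling and with the brightest probe of each gene. Vav1, a guanine nucleotide exchange factor in this pathway, had the largest difference at -0.57, but its probes disagreed, at -1.23 and 0.09, and the second is the brighter. Hcst, which encodes the related adaptor DAP10 and lies beside Tyrobp in gene order, read -2.89 in Il18-/- and -2.73 in Il18+/+. Plcg2, a phospholipase downstream of TREM2, differed by 0.18, and Syk, the kinase that TYROBP recruits, by -0.21.

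The C1q chains C1qa, C1qb and C1qc assemble together into 1 protein, and their genes are neighbours in the order C1qb, C1qc, C1qa. All 3 read slightly lower in Il18-/-. C1qa had an intensity of 1700 in Il18-/- and 1897 in Il18+/+, a difference of -0.19. C1qb had 1285 in Il18-/- and 1308 in Il18+/+, a difference of -0.06. Both differences were smaller than the software's error of a spot. That of C1qa was larger than the median SD of repeated spots, 0.07, but smaller than its 95th percentile, 0.27. That of C1qb was smaller than both.

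C1qc was the most precisely measured member, because its probe is printed in 10 spots. Its mean intensity was 2998 in Il18-/- and 3057 in Il18+/+. The 10 spots differed by -0.06 ± 0.03 (SD over spots of the same 2 pools, which is technical error only), from -0.11 to -0.01, and all 10 were below 0. The spots thus lay close together across the glass. Their mean difference was only 1.04-fold, and 35.7% of all measured genes had a lower difference. All 10 come from the same 2 pools and share the same scaling, so their common side of 0 depends on that scaling. They do not repeat the comparison of genotypes. With median scaling the difference of C1qc was -0.00196, smaller in size than the SD over spots of 0.03, and C1qb was at 0.00129. The side of 0 on which C1qb falls thus differs with the scaling. The flanking genes Ephb2 and Epha8 differed by -0.06 and -0.23.

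**Figure D2:**
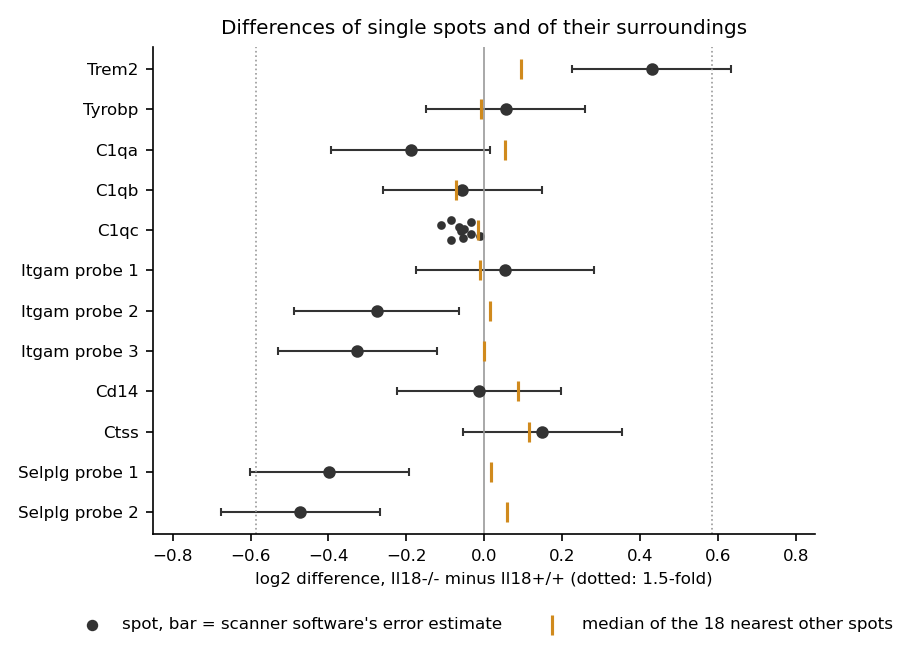
Log2 difference (Il18-/- minus Il18+/+) of each spot of the member probes, with the scanner software's error estimate as a bar for probes in 1 spot and the 10 single spots for C1qc. Orange ticks give the median difference of the 18 nearest other spots, for C1qc the median over its spots. Trem2, Itgam probes 2 and 3 and both Selplg probes lie further from 0 than their error bars reach, and no surrounding median of these exceeds 0.10.

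Itgam encodes the alpha chain CD11b of CR3, the receptor for deposited complement, and its 3 probes disagreed. Probe 1 had an intensity of 79.4 in Il18-/- and 74.9 in Il18+/+, a difference of 0.05. Probe 2 had 125.4 in Il18-/- and 148.7 in Il18+/+, a difference of -0.28. Probe 3 had 42197 in Il18-/- and 51772 in Il18+/+, a difference of -0.33. Probes 2 and 3 are assigned to the same transcript accession, yet probe 3 was brighter than 98.6% of the spots on the Il18-/- array and 99.0% of those on the Il18+/+ array, and probe 2 than 56.6% and 58.6%. What probe 3 hybridised to was not tested. The mean of all 3 was -0.18, the mean without probe 3, a choice made after the values were seen, was -0.11, and the brightest probe alone gave -0.33. Itgb2, the beta chain that pairs with CD11b, read -2.26 in Il18-/- and -2.13 in Il18+/+. Itgax, the alpha chain of the related receptor CR4 and the next gene along the chromosome, was 1.45-fold higher at dim levels of -3.94 in Il18-/- and -4.47 in Il18+/+, a difference of 0.53 that became 0.26 with normexp.

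Selplg encodes PSGL-1, the selectin ligand of leukocytes, which microglia also express. Its 2 probes agreed in direction. Probe 1 had an intensity of 1090 in Il18-/- and 1405 in Il18+/+, a difference of -0.40. Probe 2 had 344.5 in Il18-/- and 467.6 in Il18+/+, a difference of -0.47. Their mean of -0.43 was the largest negative difference among the members, and 5.32% of all measured genes had a lower one. The nearest spots around the 2 probes had medians of 0.02 and 0.06. Tmem119, a marker of homeostatic microglia that lies beside Selplg in gene order, differed by 0.05. On the other side, Coro1c differed by 0.11, and Ssh1, 2 places along, by -1.45 at dim levels of -3.68 in Il18-/- and -2.23 in Il18+/+. Selp, the P-selectin that PSGL-1 binds, differed by -0.26 at dim levels, and of 20 genes of selectin binding and adhesion 16 were measured, 5 higher and 11 lower, with a median of -0.07. Vcam1, an endothelial adhesion molecule, was 1.40-fold lower, but its probes read -0.74 and -0.22. Itgb1, an integrin beta chain, was 1.30-fold lower, and Fut7, a fucosyltransferase that builds selectin ligands, was 1.27-fold lower. Other enzymes that build or modify these ligands were higher, with Gcnt1 at 0.24, St3gal4 at 0.24 and Tpst1 at 0.18.

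Cd14 encodes the co-receptor that hands bacterial lipopolysaccharide to toll-like receptor 4. Its intensity was 150.9 in Il18-/- and 149.0 in Il18+/+, a difference of -0.01. Of 25 genes of this pathway 19 were measured, 5 higher and 14 lower, with a median of -0.09. Lbp, which encodes the lipopolysaccharide-binding protein, was 2.03-fold lower, with -1.28 in Il18-/- and -0.26 in Il18+/+. It was the 1 gene at 1.5-fold among the 19 measured on both arrays. Tlr6 passed the background criterion in Il18+/+ only and was at least 1.69-fold lower in Il18-/-. Ccl4, a chemokine, was 1.44-fold lower at dim levels, at -0.52, and differed by -0.14 with normexp. The cytokine genes Tnf, Il1b and Il6 were not well above background on either array, so no difference of theirs was detectable. Tlr4 passed the background criterion in Il18+/+ only, although its level there was the lower, at -4.82 against -3.61 in Il18-/-. It is therefore given no fold and no direction.

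Ctss encodes cathepsin S, a lysosomal protease that processes antigen-presentation proteins. Its intensity was 8755 in Il18-/- and 7732 in Il18+/+, a difference of 0.15. The 18 nearest other spots had a median difference of 0.11, close to that of Ctss itself. Ctsk, the cathepsin gene beside it, differed by 0.06. Among 23 lysosomal genes, all measured, 14 were higher and 9 lower, with a median of 0.03. Psap, which encodes the precursor of the saposins, was 1.60-fold higher by 1 probe, and Tfeb, a transcription factor for lysosomal genes, was 1.42-fold lower.

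The promoters of Trem2 and Ctss, the members with the most positive differences, and of the neighbouring C1qb and C1qc, which read alike, are shown as the 250 bases before the start of each gene. They come from a table of RefSeq promoters on GRCm38.p6, in which 6 of the 10 members were matched, and each is written 5′ to 3′ on the strand of its gene. Capitals mark the letters GAGGAA, the core bound by the myeloid factor PU.1, on either strand. They also mark TGANTCA, a loose form of the site of Fos and Jun dimers that takes any base at its centre. The third marked stretch is GAAANNGAAA, the interferon-stimulated response element.

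Trem2, chr17:48346151-48346400, plus strand: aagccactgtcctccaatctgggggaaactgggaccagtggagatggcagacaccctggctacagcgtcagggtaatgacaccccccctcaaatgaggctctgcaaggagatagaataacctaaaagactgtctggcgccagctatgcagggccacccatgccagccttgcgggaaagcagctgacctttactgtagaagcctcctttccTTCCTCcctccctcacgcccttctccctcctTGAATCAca
Ctss, chr3:95526536-95526785, plus strand: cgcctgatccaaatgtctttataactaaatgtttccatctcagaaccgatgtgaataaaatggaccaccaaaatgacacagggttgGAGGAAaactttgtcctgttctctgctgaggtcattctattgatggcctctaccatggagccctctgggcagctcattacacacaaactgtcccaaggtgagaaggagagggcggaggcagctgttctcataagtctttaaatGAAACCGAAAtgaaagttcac
C1qb, chr4:136886201-136886450, minus strand: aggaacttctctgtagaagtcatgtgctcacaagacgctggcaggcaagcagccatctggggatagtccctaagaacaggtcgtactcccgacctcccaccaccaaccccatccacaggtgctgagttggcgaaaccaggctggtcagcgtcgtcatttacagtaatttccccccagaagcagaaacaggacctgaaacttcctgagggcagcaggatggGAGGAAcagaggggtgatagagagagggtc
C1qc, chr4:136892915-136893164, minus strand: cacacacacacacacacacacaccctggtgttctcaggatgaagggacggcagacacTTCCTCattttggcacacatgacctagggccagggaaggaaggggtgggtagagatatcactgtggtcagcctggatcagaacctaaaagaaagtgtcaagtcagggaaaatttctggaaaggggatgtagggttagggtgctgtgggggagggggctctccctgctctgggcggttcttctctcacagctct

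Each of the 4 windows holds GAGGAA or its reverse complement once, as do 23.3% of 32851 promoter windows of that length, which were searched for 1 match or more. Trem2 also holds TGANTCA, as TGAATCA, 3 to 9 bases before its start. The match reads on both strands, and TGANTCA is found in 6.75% of windows. Ctss holds GAAANNGAAA 12 to 21 bases before its start, found in 2.98% of windows. The matches in these windows do not overlap. They describe the letters and not the binding of a factor. Spi1, the gene of PU.1, was not well above background on either array. Irf8, an interferon regulatory factor of microglia, differed by 0.13, and the list of 16 microglial transcription factors, 13 of them measured, had a median of -0.06.

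The presence of microglial RNA in the bulk tissue was checked with markers of these cells. P2ry12 read 0.55 in Il18-/- and 0.57 in Il18+/+, and Tmem119, Cx3cr1 and Csf1r were also well above background on both arrays, with differences between -0.16 and 0.05. The 2 probes of Cx3cr1 disagreed, at -0.38 and 0.05. Of 20 homeostatic microglia genes, all measured, 10 were higher and 10 lower, with a median of 0.01 that equals the median of all measured genes at that rounding. Laptm5, a lysosomal membrane gene, was 1.33-fold lower and Crybb1, a crystallin gene of microglia, was 1.31-fold higher. Both have 2 probes on the same side. None of the 20 reached 1.5-fold.

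**Figure D3:**
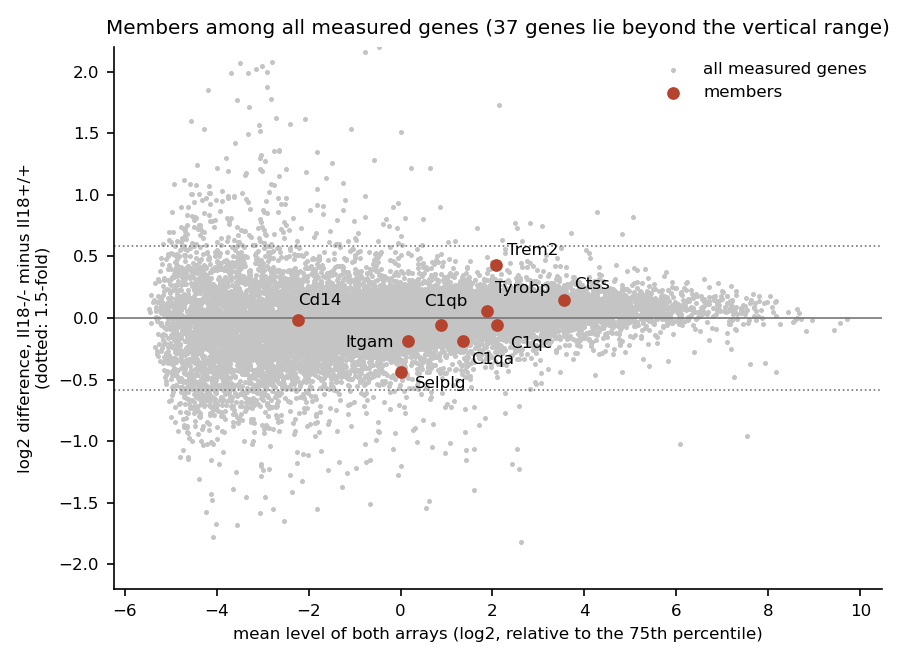
Log2 difference (Il18-/- minus Il18+/+) against the mean level of both arrays for 15737 measured genes (grey) and the 9 measured members (red). All members lie between the dotted lines at 1.5-fold, with Trem2 at 0.43 and Selplg at -0.43 furthest from 0.

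The complement genes beyond C1q were not uniform. Of 40 listed genes 26 were measured, 17 higher and 9 lower, with a median of 0.10, and 3 were at least 1.5-fold higher. Over all 15737 measured genes, 52.6% were higher, and 264 genes were at least 1.5-fold higher. Hc, which encodes complement C5, was 3.07-fold higher, Cfd, which encodes factor D, was 1.92-fold higher at dim levels, and C3, the central component, was 1.54-fold higher. Cfd differed by 0.35 with normexp and by 0.41 with no background correction, and C3 by 0.53 and 0.56, so that both were then under 1.5-fold. The 2 probes of C3 differed by 0.08 and 1.17, and the brighter one alone gave 0.08. Mbl2, a mannose-binding lectin gene, was well above background in Il18-/- only and at least 3.55-fold higher there, against the higher of its own dim signal and the lowest signal well above background on the Il18+/+ array. C4b, a component of the classical pathway, differed by -0.08. Clu, which encodes the inhibitor clusterin, differed by 0.08.

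Most liver markers were higher as well. Of 20 liver markers 19 were measured, 14 higher and 5 lower, with a median of 1.99. Their mean level was -0.24 in Il18-/- and -2.02 in Il18+/+. All 14 were at least 1.5-fold higher. Of the 5 lower, only Ttr, which is also on the choroid plexus list, reached 1.5-fold, at -0.96. The fibrinogen gene Fga was among the lower ones, at -0.24 and dim on both arrays, whereas Fgb differed by 2.99 and Fgg by 2.90. Their median was 1.15 with normexp, 1.37 with no background correction and 2.62 with a stricter filter on dim probes. The albumin gene Alb had a level of -1.31 in Il18-/-, against -4.95 in Il18+/+, and its difference of 3.64 became 1.83 with normexp. Hc, C3 and Mbl2 are made mainly in liver, and the part of liver RNA in their differences was not tested.

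Among 31 phagocytic receptors and bridging proteins, 27 were measured, 9 higher and 18 lower, with a median of -0.13 and none at 1.5-fold. Itgav, an integrin chain that recognises dying cells, was 1.43-fold lower, with probes at -0.90 and -0.13. Elmo1, which links such receptors to the cytoskeleton, was 1.38-fold lower at dim levels, at -0.47, and differed by -0.20 with normexp. Fcgr4, an activating Fc receptor, was 1.29-fold higher at dim levels, at 0.36, and differed by 0.14 with normexp. Mertk, a receptor for apoptotic cells, differed by -0.17, and Gas6, its bridging ligand, by -0.22. Axl, of the same receptor family, differed by 0.00.

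The genes that microglia raise in disease models had 19 of 20 members measured, 12 higher and 7 lower, with a median of 0.07. Cst7, which encodes cystatin F, was 2.13-fold higher, with -2.28 in Il18-/- and -3.36 in Il18+/+ from 1 probe. Its difference of 1.09 became 0.51 with normexp and 0.58 with no background correction, both under 1.5-fold. Ccl6, a chemokine gene, was 1.51-fold lower, and under 1.5-fold with normexp at -0.55. It was also under 1.5-fold with quantile scaling at -0.56, median scaling at -0.54 and loess scaling at -0.52. Apoe, a ligand of TREM2, differed by 0.09, Lpl by 0.23 and Spp1 by -0.46.

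**Figure D4:**
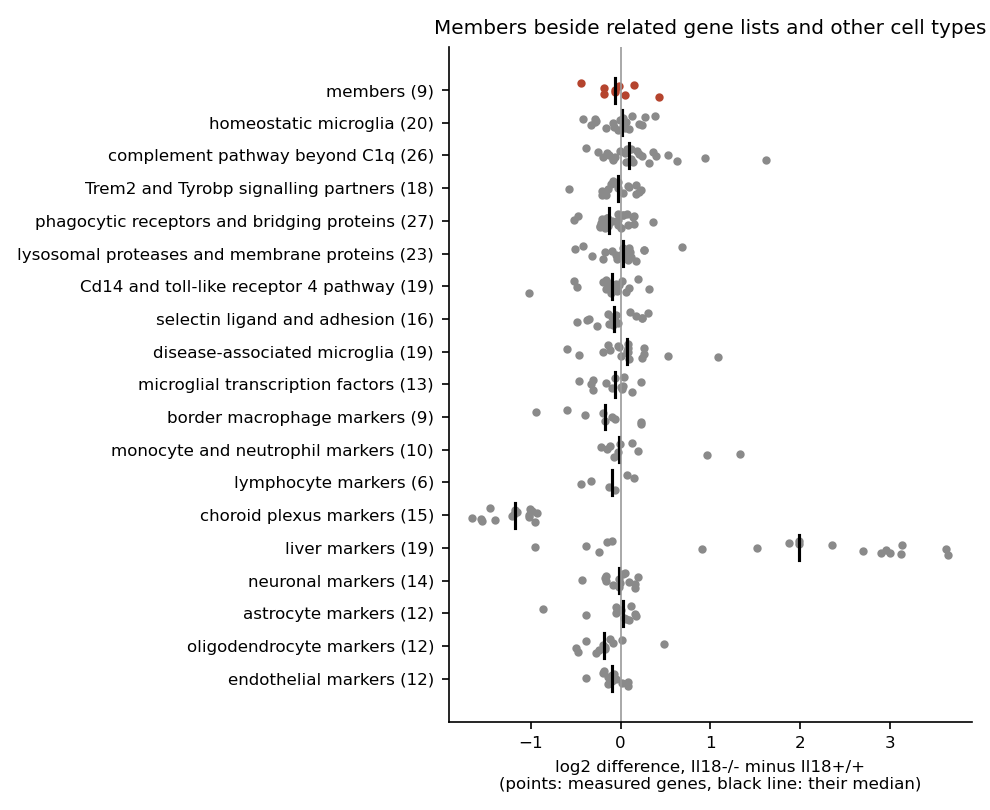
Log2 difference (Il18-/- minus Il18+/+) of every measured gene in the members, in related gene lists and in marker lists of other cell types, with the number measured in brackets and the median as a black line. The choroid plexus markers lie at a median of -1.18 and the liver markers at 1.99, while the members and microglial lists stay near 0.

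Several members are also made by other myeloid cells, so their markers stand beside them here. Of 15 border macrophage markers 9 were measured, 2 higher and 7 lower, with a median of -0.17 and mean levels of -2.00 in Il18-/- and -1.78 in Il18+/+. A further 4 passed the background criterion in Il18+/+ alone. These include Lyve1, at least 2.38-fold lower in Il18-/-. Folr2 was 1.93-fold lower and Dab2 1.51-fold lower in Il18-/-, whereas Mrc1 differed by 0.22 and F13a1 by 0.23. Dab2 was under 1.5-fold with normexp at -0.49 and with no background correction at -0.53. The same held with quantile scaling at -0.57, median scaling at -0.53 and loess scaling at -0.56. Cd163 was not above background on either array.

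Choroid plexus markers were all lower in Il18-/-, 15 of 15 at 1.5-fold or more, with a median of -1.18 and mean levels of 0.19 in Il18-/- and 1.41 in Il18+/+. Of 17 monocyte and neutrophil markers 10 were measured, 4 higher and 6 lower, with a median of -0.02. S100a9 was 2.51-fold higher, a difference of 1.33 that became 0.83 with normexp, and Ccr2, the defining monocyte receptor, was not above background on either array. Of 16 lymphocyte markers 6 were measured, 2 higher and 4 lower, with a median of -0.09. The part of these cells in the differences of Selplg, Itgam, Lbp and the other genes above was not tested.

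For the remaining cell types, medians were -0.01 for 14 neuronal, 0.02 for 12 astrocyte, -0.19 for 12 oligodendrocyte and -0.10 for 12 endothelial markers, all of them measured.

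**Figure D5:**
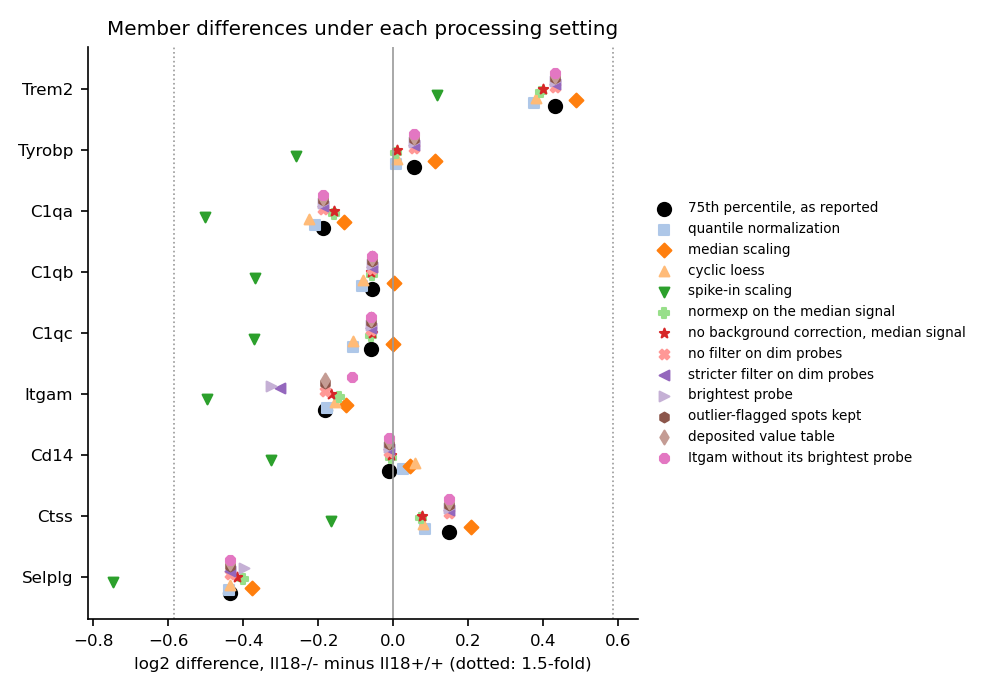
Log2 difference (Il18-/- minus Il18+/+) of the 9 measured members with the scaling as reported (black) and under 12 alternatives. Trem2 stays above 0 and C1qa, C1qc, Itgam and Selplg stay below 0 in each, and the spike-in scaling moves all members to the left by 0.31.

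Across the 12 alternatives in the plot of processing settings, Trem2 stayed between 0.12 and 0.49 and Selplg between -0.75 and -0.38. Tyrobp and Ctss were above 0 in 11 of 12 and below 0 with the spike-in scaling, whose shift of 0.31 is common to all genes. C1qb was above 0 with median scaling only. Cd14 was above 0 with quantile, median and loess scaling. The members' split of 3 higher and 6 lower became 5 and 4 with median scaling. It was 4 and 5 with quantile and loess scaling, and 1 and 8 with spike-in scaling. Among the lists, the medians of the homeostatic, lysosomal and disease-model genes were below 0 with loess and spike-in scaling, the homeostatic and lysosomal ones with quantile scaling too, that of the complement genes with spike-in scaling, and that of the transcription factors was above 0 with loess. The medians of the monocyte and neutrophil, lymphocyte, neuronal and astrocyte markers, all within 0.1 of 0, changed sign in at least 1 alternative.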

How the data were processed

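Per the labels, 1 pool of total RNA from 7 mice represents each genotype. It was labelled with Cy3 for a one-colour Agilent array. Per the submitters' processing notes, the deposited intensity values were extracted with version 10.10.1.1 of Agilent's Feature Extraction software. The design refers to mm9. Both arrays shared a slide and a scan. The authors' deposited value table is linear and uncentred and equals that intensity times a factor, 1.92 for Il18-/- (column median 139.5) and 2.05 for Il18+/+ (column median 151.5). The basis of these factors is not known.

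Of 62976 spots, 3671 controls were left out, and so were spots with an outlier mark, 177 in Il18-/- and 124 in Il18+/+. No other spot was saturated. Levels are the log2 of the processed intensity less that of its 75th percentile, which was 709.9 in Il18-/- and 694.8 in Il18+/+. Probes were well above background in 65.4% of cases for Il18-/- and 67.2% for Il18+/+. Accessions matched to RefSeq genes of GRCm38.p6 named 27235 probes with 1 symbol and left 28446 unnamed. A gene's value is the mean over its probes that were well above background on both arrays.

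The members and the 18 gene lists were chosen with earlier results of these data known. All members were named, with Il18, up to 3 genes of a list by size of difference, and defining markers. Other list genes given in the text (such as Hcst, Plcg2, Syk, Irf8, Clu, Gcnt1, St3gal4, Tpst1 and Apoe) were added for their roles after their values were seen. With 1 pool per genotype there was no test, and precision is limited by the number of arrays. The calculation was tested on simulated data. Alternatives with other background correction used the median signal, in place of the mean signal. The software was limma 3.58.1 in R 4.3.3, and pandas 2.3.3, numpy 2.4.6, matplotlib 3.10.9 and scipy 1.17.1 in Python 3.11.15.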

Additional observations from a re-analysis of the deposited data

How the results depend on the processing

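The count of members at 1.5-fold or more was 0 and stayed 0 in 11 of 12 alternatives. With the spike-in scaling it was 1, Selplg at -0.75. The median of the members, -0.06, became -0.37 with that scaling, which moved the median of all genes to -0.30, so the gap between the members' median and that of all genes stayed at -0.07. Across the other 11 alternatives the median ran from -0.08 to 0.00129. These were quantile, median and loess scaling, normexp and no background correction on the median signal, the brightest probe, dim probes filtered more strictly or not at all, outlier spots kept, the authors' deposited values, which give the same differences by construction, and Itgam without its brightest probe, which was chosen after seeing the data. Itgam moved to -0.30 with the stricter filter, which drops its dimmest probe, and Ctss to 0.07 with normexp. Over all genes, 264 were at least 1.5-fold higher and 405 lower, against 126 and 1865 with the spike-in scaling, 114 and 107 with normexp, 132 and 147 with no background correction, 815 and 1357 with no filter on dim probes, 156 and 195 with a stricter one, 311 and 324 with quantile, 320 and 317 with median and 339 and 271 with loess scaling. Dim signals limit Cd14 and 2 of the 3 Itgam probes. No paired analysis was possible because each genotype has 1 pooled sample.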
